A study of Mus musculus with 20 samples.

Results

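Chemokines and their receptors were examined in LLC1 tumors. Genes were taken by symbol: the Ccl and Cxcl ligands, Cx3cl1 and Xcl1, the Ccr and Cxcr receptors, Cx3cr1 and Xcr1, and the atypical receptors Ackr1 to Ackr4. Of 35226 genes in the table, 57 matched, and the 45 with a total of 100 or more counts over the 20 tumors were kept. They comprised 29 ligands, 13 receptors and 3 atypical receptors. The 12 matching genes under this minimum were Ackr4, Ccl1, Ccl19, Ccl20, Cxcl11, Cxcl15, Ccr10, Ccr1l1, Ccr4, Ccr6, Ccr8 and Cxcr1.

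LLC1 is an established mouse cell line from a Lewis lung carcinoma. Young adult male C57Bl6/J mice carried LLC1 tumors subcutaneously on the right side, grown from cells given with Matrigel. Treatment groups were assigned at random at a set tumor volume. The 4 groups of 5 tumors each received the vehicle, KW6002 (istradefylline, which blocks an adenosine receptor), cisplatin (a platinum drug that binds DNA), or cisplatin together with KW6002 (cotreatment). All mice carried the same tumor line, no genetic modification is named for any group, and the doses and injection times of the tumor experiment were not used here. The library codes in the sample descriptions form a lower-numbered block, called the earlier run, and a higher-numbered block, called the later run, and what the codes stand for is not given in the sources used here. The earlier run holds 1 vehicle, 2 KW6002, 2 cisplatin and 3 cotreatment tumors, and the later run holds 4, 3, 3 and 2.

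Chemokines are small secreted proteins that guide cells along concentration gradients. They are named by the spacing of conserved cysteines near the amino terminus (C, CC, CXC and CX3C), and they act on membrane receptors coupled mainly to Gi proteins. Atypical receptors bind chemokines without this signalling and act mostly as scavengers. In tumors, CC ligands such as Ccl2 are known for drawing monocytes, the Cxcr2 ligands for drawing neutrophils, and the Cxcr3 ligands Cxcl9 and Cxcl10 for drawing T and NK cells.

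Libraries held 28.37 to 40.97 M counted reads, and 16665 genes had enough counts to be tested, including 43 of the 45 members (28 ligands and 15 receptors with the atypical ones). Ccl21a and Cxcr5 were too low outside 1 tumor to be tested. Biological variation of the members was high: their median coefficient of variation between tumors of a group was 0.376, against 0.127 for all genes, and 41 of 43 lay above that median. Nkx2-1, a factor of lung epithelium, was at 0 in 20 of 20 tumors and the surfactant gene Sftpc in 19, while the intermediate filament genes Krt8, Krt18 and Vim reached medians of 154, 287 and 3334 counts per 1 M counts of the library (CPM). Ptprc, which encodes CD45 on leukocytes, was at 43.6 to 115 CPM. In bulk samples such as these fewer cells of a type and less RNA per cell cannot be told apart. P values set a difference between groups or runs against the spread between these tumors.

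Compared per length (RPKM, CPM per kilobase of exon), the most abundant ligands were monocyte-attracting CC chemokines. Averaged over 20 tumors, Ccl2 reached 174 RPKM, Ccl8 168, Ccl6 134, Ccl7 128 and Ccl11, an eosinophil attractant, 69.2. Among the highest receptors on that scale were Ccr1 at 25.2 RPKM, Ccr2 at 11.1, Cxcr4 at 10.8 and the scavenger Ackr3 at 8.31. Ccr1 binds Ccl6, Ccl7 and Ccl9 among others, and Ccr2 binds Ccl2, Ccl7 and Ccl12. In counts, 6 ligands (Ccl6, Ccl2, Ccl9, Ccl7, Ccl8 and Ccl11) made up 80.6% of the ligand sum. All members together held 0.134% of the counts.

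Summed over all ligands, expression was 1059 ± 75.5 CPM with vehicle, 1063 ± 167 with KW6002, 1143 ± 318 with cisplatin and 891 ± 203 with cotreatment (mean ± SD, n = 5). The receptor sum was 308 ± 26.0, 345 ± 20.99, 301 ± 18.4 and 253 ± 40.7 CPM in the same order. Ligand sums ranged from 985 to 1178 CPM in vehicle tumors and from 640 to 1172 CPM in cotreated tumors, so these groups overlapped. The ratio of ligand to receptor CPM was 3.45 ± 0.284, 3.11 ± 0.609, 3.80 ± 1.00 and 3.61 ± 1.07, and its spread between tumors was widest in both groups given cisplatin. These sums rest on a few abundant genes, while many of the differences described here are in ligands of low abundance.

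**Figure D1:**
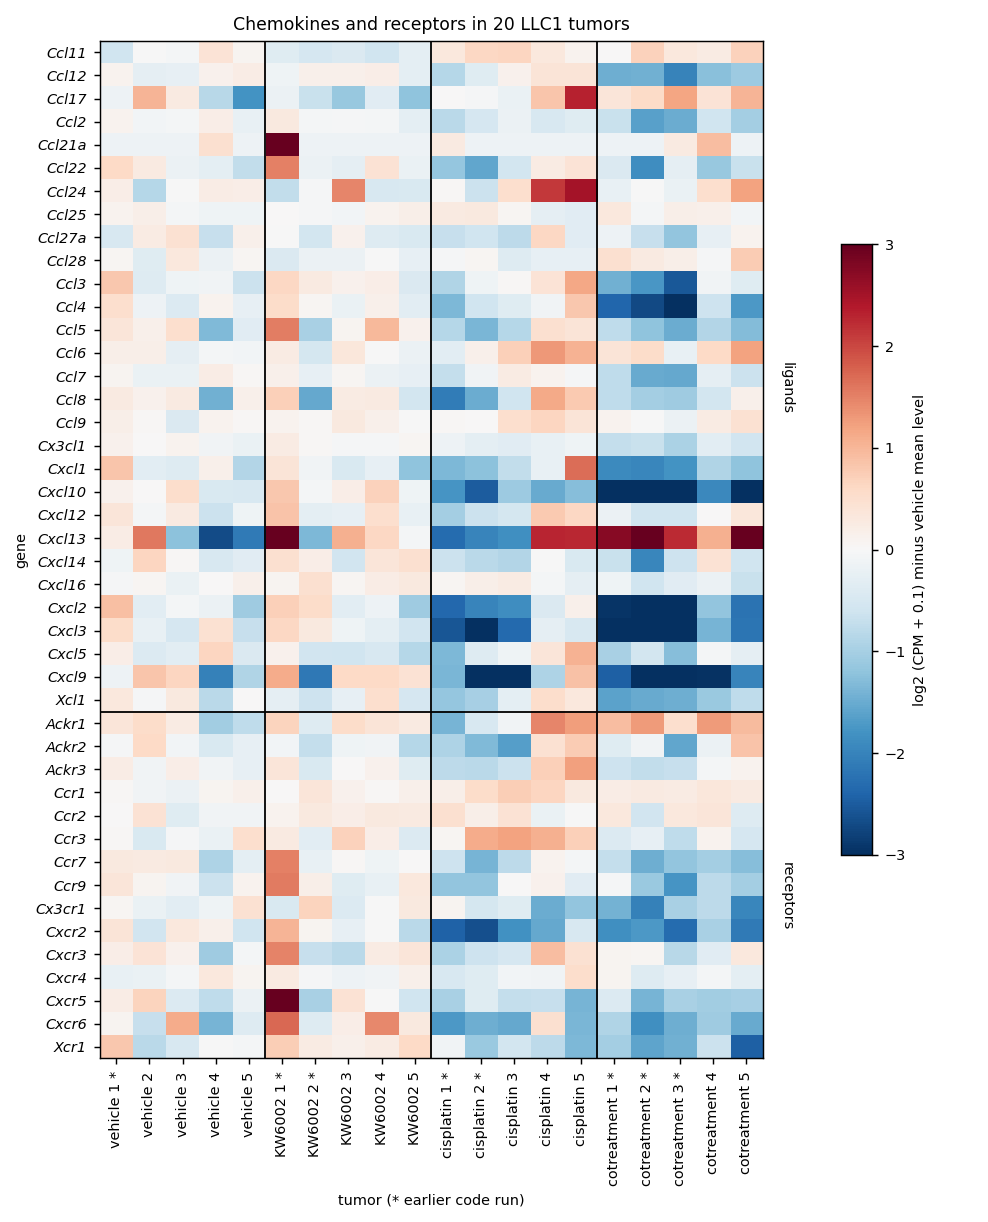
Heat map of 44 members (rows) in 20 tumors (columns, ordered by group; a star marks the earlier code run), coloured by log2 (CPM + 0.1) minus the mean of the vehicle tumors and limited at 3 in each direction. The columns of the cotreated tumors are mostly blue for Cxcl10, Cxcl3, Cxcl2, Ccl4 and Ccl12, and KW6002 replicate 1 stands out in red for Ccl21a, Cxcr5 and Cxcl13. Ccl21a and Cxcr5 reached the count minimum only through that tumor.

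The first question was whether KW6002 alone altered these genes. No member was called at an adjusted P value under 0.05 with an absolute log2 fold change of at least 0.32 (edgeR quasi-likelihood test, Benjamini-Hochberg over all genes), and none of the 16665 genes was: 0% called, 0% higher and 0% lower. DESeq2 also called 0 members. Before adjustment 2 members, Ccl11 and Cxcl16, were among 339 genes with P under 0.05. Ccl11 measured 45.1, 66.9, 65.0, 90.7 and 71.7 CPM with vehicle and 53.2, 48.1, 50.5, 44.6 and 55.5 CPM with KW6002, a log2 fold change of -0.43 ± 0.16, adjusted P = 1.00. Cxcl16, the membrane-bound ligand of Cxcr6, measured 36.9, 39.0, 32.4, 37.7 and 41.5 and 39.5, 52.8, 39.3, 43.9 and 46.0 CPM, 0.24 ± 0.11, adjusted P = 1.00 on the log2 scale. Both pairs of groups overlapped. The median log2 fold change was 0.05 over ligands, 0.21 over receptors and -0.003 over all genes.

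KW6002 replicate 1 differed from the other tumors in genes of lymphoid tissue. Ccl21a, a ligand of the T cell and dendritic cell receptor Ccr7, was at 4.97 CPM (160 counts) in this tumor and at 0 in the other 4 of its group. Over the remaining groups Ccl21a had 0, 0, 0, 0.0551 and 0 CPM with vehicle, 0.0338, 0, 0, 0 and 0 CPM with cisplatin and 0, 0, 0.0341, 0.110 and 0 CPM with cotreatment. Cxcr5, the B cell receptor for Cxcl13, measured 3.42, 0.0322, 0.253, 0.160 and 0.0723 CPM with KW6002 and no more than 0.316 CPM in any tumor of the other groups. Both genes reached the minimum of 100 counts only through replicate 1, which held 160 of 168 Ccl21a counts and 110 of 166 Cxcr5 counts. Their high level there was therefore partly set by the rule that chose the members. The summed B cell markers (5 genes) were at 48.8 CPM in KW6002 replicate 1 and at most 1.49 CPM in every other tumor, and the summed T cell markers (8 genes) were at 31.3 and at most 9.57 CPM. Ccr7, Ccl22 and Cxcl13 were also highest of their group there, and the part of these cells in their levels was not tested. Ccl21a has near-identical gene copies, so its reads are uncertain.

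Cisplatin alone was compared with vehicle next. Of 43 members, 5 were called, 2 higher and 3 lower. Over all genes 10.6% were called, 6.01% higher and 4.57% lower, and the members' share was 11.6%. The calls fell on 1 of 28 ligands, Cxcl10, and on 4 of 15 receptors, where Ccr1 and Ccr3 were higher and Cxcr2 was among the lower. The groups did not overlap for 3 members (Ccr1 and Cxcl10 among them), or 6.98%, against 10.4% of all genes. The median log2 fold change was -0.03 over ligands, -0.24 over receptors and 0 over all genes.

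Cxcl10 measured 15.9, 14.7, 20.8, 10.5 and 10.4 CPM in the vehicle tumors and 25.6, 13.9, 16.6, 23.4 and 13.2 CPM in the KW6002 tumors. With cisplatin alone Cxcl10 was at 4.16, 2.46, 6.75, 5.03 and 5.94 CPM, and with cotreatment at 1.35, 0.386, 0.716, 3.69 and 1.62 CPM. Each cisplatin tumor lay below each vehicle and KW6002 tumor, and 4 of 5 cotreated tumors lay below each cisplatin tumor, with cotreatment replicate 4 the exception. Cxcl10, an interferon-induced ligand of Cxcr3, was 2.97-fold lower with cisplatin than with vehicle (log2 fold change -1.57 ± 0.40, adjusted P = 0.0128). It was 9.24-fold lower with cotreatment than with vehicle (-3.21 ± 0.44, adjusted P = 3.02e-05). Of its exon bases, 5.91% are shared with Art3 on the other strand.

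Ccr1 measured 61.9, 56.5, 53.2, 63.7 and 66.8 CPM in the vehicle tumors and 60.6, 78.2, 66.6, 61.9 and 67.5 CPM in the KW6002 tumors. With cisplatin alone Ccr1 was at 68.8, 89.1, 101, 94.4 and 74.3 CPM, and with cotreatment at 70.5, 72.6, 71.7, 76.8 and 72.4 CPM. Every tumor given cisplatin, alone or with KW6002, lay above every vehicle tumor. Ccr1, a receptor of monocytes, macrophages and neutrophils, was 1.42-fold higher with cisplatin (0.50 ± 0.09, adjusted P = 0.000915). With cotreatment the log2 fold change was 0.27 ± 0.09, adjusted P = 0.0262, which is under the fold limit and was not called. The summed macrophage markers (10 genes) were at 2320 to 3444 CPM with vehicle and 3191 to 4396 CPM with cisplatin, with 2 of 10 (Mrc1 among them) higher and a median log2 fold change of 0.39. Their part in the Ccr1 result was not tested.

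Ccr3 measured 0.725, 0.492, 0.686, 0.606 and 1.04 CPM in the vehicle tumors and 0.871, 0.548, 1.20, 0.833 and 0.506 CPM in the KW6002 tumors. With cisplatin alone Ccr3 was at 0.744, 1.65, 1.78, 1.59 and 1.24 CPM, and with cotreatment at 0.514, 0.579, 0.375, 0.771 and 0.468 CPM. In 4 of 5 cisplatin tumors Ccr3 lay above every vehicle tumor, and replicate 1 lay among them. Ccr3, the eotaxin receptor of eosinophils and other cells, rose with cisplatin (0.98 ± 0.27, adjusted P = 0.0166). Its levels rest on few reads, about 1 CPM.

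Cxcr2 measured 6.29, 3.20, 6.04, 5.34 and 3.13 CPM in the vehicle tumors and 9.79, 5.13, 4.05, 4.77 and 2.68 CPM in the KW6002 tumors. With cisplatin alone Cxcr2 was at 0.812, 0.686, 1.30, 1.59 and 3.39 CPM, and with cotreatment at 1.27, 1.38, 0.887, 2.39 and 1.03 CPM. Cisplatin replicate 5 lay within the range of the vehicle tumors, the other 4 below it, and the cotreated tumors were all below it. Cxcr2, the neutrophil receptor for Cxcl1, Cxcl2, Cxcl3 and Cxcl5, was 3.08-fold lower with cisplatin (-1.62 ± 0.41, adjusted P = 0.0112) and 3.43-fold lower with cotreatment (-1.78 ± 0.41, adjusted P = 0.00243). The summed neutrophil markers (7 genes) were at 52.8 to 131 CPM with vehicle, 57.7 to 159 with KW6002, 19.0 to 85.3 with cisplatin and 23.0 to 41.9 with cotreatment. Of 6 tested neutrophil markers 1 was lower with cisplatin (S100a8, median log2 fold change of the list -0.47) and 3 with cotreatment (S100a8, S100a9 and Csf3r, median -0.79), and their part in the Cxcr2 result was not tested.

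**Figure D2:**
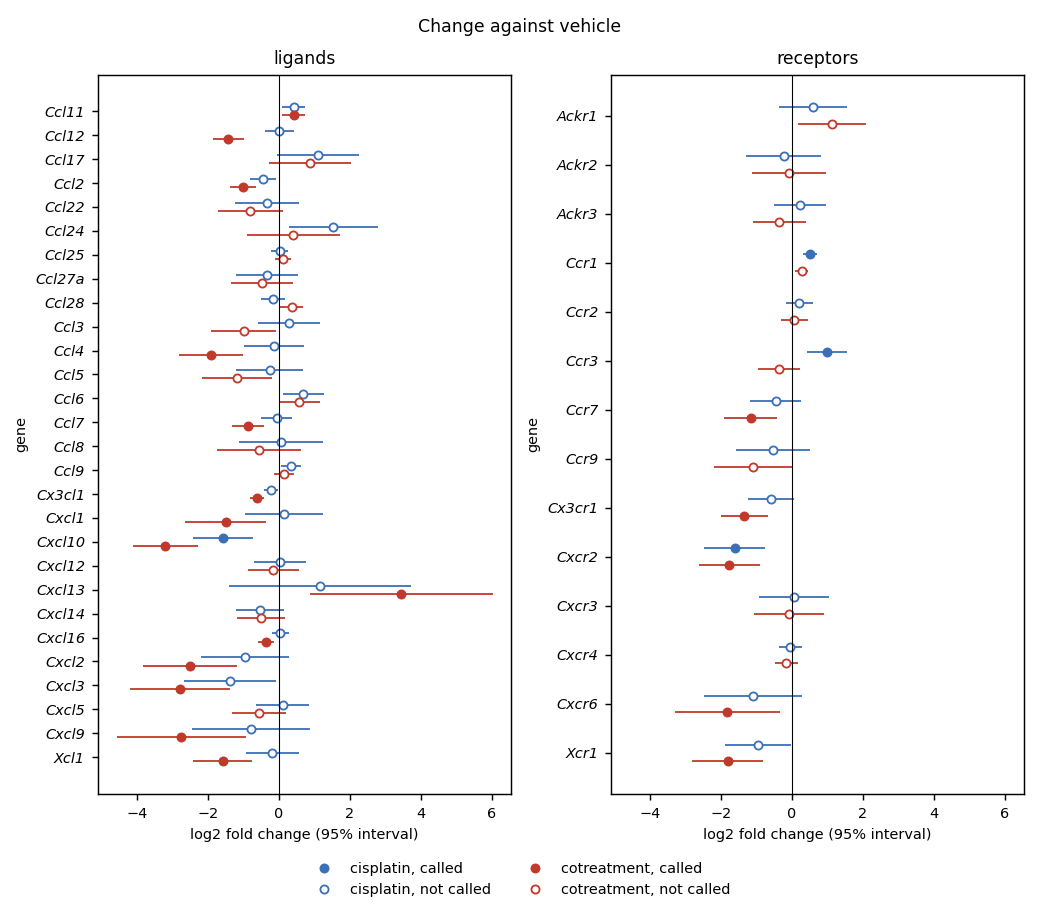
Log2 fold change against vehicle of tested ligands (left) and receptors (right), with 95% intervals, for cisplatin and for cotreatment; filled points passed both thresholds. Cxcl10 is lowest with cotreatment at -3.21, and 12 ligands are filled and lie lower with cotreatment while Cxcl13 and Ccl11 lie higher.

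Cotreatment was then compared with vehicle. Of 43 members tested, 20 were called, 2 higher and 18 lower. Over all genes 23.5% were called, 13.1% higher and 10.4% lower. Ligands gave 2 higher and 12 lower of 28, and receptors 0 higher and 6 lower of 15. The median log2 fold change was -0.60 over ligands, -0.38 over receptors and -0.02 over all genes, and the groups did not overlap for 13 members (30.2%), against 24.7% of all genes. Among CXC ligands 6 of 10 were lower and 1 higher, and among CC ligands 4 of 16 were lower and 1 higher. Within the later run alone, with 4 vehicle and 2 cotreated tumors, 7 members were called. Of the 20, 5 kept their call there (Ccl2, Ccl12, Cxcl10 and Cx3cl1 among them). The share of all genes called in this smaller fit is not given here, so the count has no background beside it. With a code run term over all tumors Cxcl1 (-1.48, adjusted P = 0.0520) and Cxcr6 (-1.75, adjusted P = 0.0802) lost their calls, and Ccl6 and Ackr1 were called higher. A further fit gave tumors with and without cisplatin separate run terms, and its values are those for the earlier run, which held 1 vehicle tumor.

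The lower CC ligands were Ccl2, Ccl7 and Ccl12, which act on Ccr2 and lie in 1 cluster on chromosome 11 (chr11:82035571-82037453, chr11:82045712-82047525 and chr11:82101845-82103400, GRCm38), and Ccl4, an inflammatory chemokine of macrophages and T cells. Ccl12 measured 26.8, 20.6, 20.96, 27.2 and 29.0 CPM in the vehicle tumors and 22.9, 27.5, 27.8, 28.6 and 20.4 CPM in the KW6002 tumors. With cisplatin alone Ccl12 was at 13.7, 19.4, 27.2, 32.6 and 32.5 CPM, and with cotreatment at 8.98, 9.04, 6.17, 10.4 and 11.6 CPM. The 5 cotreated tumors were the lowest 5 of all 20. Ccl12, a mouse ligand of Ccr2, was 2.69-fold lower than with vehicle (log2 fold change -1.43 ± 0.21, adjusted P = 3.93e-05).

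Ccl2 measured 266, 233, 238, 282 and 212 CPM in the vehicle tumors and 300.2, 237, 242, 237 and 202 CPM in the KW6002 tumors. With cisplatin alone Ccl2 was at 139.6, 174, 218, 178 and 193 CPM, and with cotreatment at 155, 79.0, 87.5, 162 and 121 CPM. Cotreated tumors lay below all tumors without cisplatin and overlapped the cisplatin tumors. Ccl2, the main monocyte attractant among the ligands of Ccr2, was 2.04-fold lower than with vehicle (-1.03 ± 0.17, adjusted P = 0.000183). Ccl7 measured 127, 103, 104, 139 and 123 CPM in the vehicle tumors and 132, 101, 125, 105 and 101 CPM in the KW6002 tumors. With cisplatin alone Ccl7 was at 72.4, 111, 142, 129 and 117 CPM, and with cotreatment at 69.9, 41.8, 41.2, 98.3 and 75.8 CPM. As for Ccl2, the cotreated tumors were below every vehicle and KW6002 tumor, and Ccl7 was 1.82-fold lower than with vehicle (-0.87 ± 0.21, adjusted P = 0.00410).

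Ccl4 measured 4.94, 3.09, 2.58, 3.72 and 2.90 CPM in the vehicle tumors and 5.07, 3.61, 3.01, 3.81 and 2.75 CPM in the KW6002 tumors. With cisplatin alone Ccl4 was at 1.28, 2.26, 2.66, 3.22 and 6.14 CPM, and with cotreatment at 0.587, 0.441, 0.341, 2.20 and 0.967 CPM. All cotreated tumors were below all tumors without cisplatin, and 4 of 5, all but replicate 4, were below every cisplatin tumor. Ccl4 was 3.77-fold lower than with vehicle (-1.91 ± 0.43, adjusted P = 0.00203). In the later run alone the log2 fold change of Ccl4 was -0.93, adjusted P = 0.101, over 2 cotreated and 4 vehicle tumors, and with separate run terms it was -3.12 (adjusted P = 7.37e-06). Ccl11 was the CC ligand called higher, while with a code run term Ccl6 was called as well (0.70, adjusted P = 0.0378). In the later run alone Ccl6 (1.00, adjusted P = 0.0110) and Ccl9 (0.42, adjusted P = 0.0497) were called higher and Ccl11 was not (0.39, adjusted P = 0.147). With separate run terms none of the 3 was called, at 0.19 for Ccl6 (adjusted P = 0.632), -0.08 for Ccl9 (adjusted P = 0.680) and 0.64 for Ccl11 (adjusted P = 0.0501). With cisplatin Ccl11 measured 84.5, 105, 106, 84.0 and 73.1 CPM and with cotreatment 69.0, 109, 84.7, 81.2 and 109 CPM, overlapping the vehicle values given above, and it was 1.33-fold higher with cotreatment than with vehicle (0.42 ± 0.15, adjusted P = 0.0435). The Ccl11 call was kept in 13 of 20 fits that each left out 1 tumor.

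The lower CXC ligands were Cxcl1, Cxcl2 and Cxcl3, which act on Cxcr2, Cxcl9 and Cxcl10, which act on Cxcr3, and Cxcl16. Cxcl2 measured 23.5, 10.0, 11.9, 11.01 and 5.87 CPM in the vehicle tumors and 20.6, 18.2, 9.97, 11.2 and 5.86 CPM in the KW6002 tumors. With cisplatin alone Cxcl2 was at 2.37, 3.07, 3.36, 9.20 and 13.8 CPM, and with cotreatment at 1.54, 0.689, 0.716, 5.39 and 2.59 CPM. Cotreated tumors lay below every tumor without cisplatin, and among the cisplatin tumors replicates 4 and 5 were high. Cxcl2 was 5.67-fold lower with cotreatment than with vehicle (-2.50 ± 0.63, adjusted P = 0.00501). Cxcl3 measured 6.36, 3.73, 3.004, 5.95 and 2.64 CPM in the vehicle tumors and 6.68, 5.35, 3.99, 3.52 and 2.86 CPM in the KW6002 tumors. With cisplatin alone Cxcl3 was at 0.643, 0.279, 0.786, 3.59 and 3.07 CPM, and with cotreatment at 0.343, 0.110, 0.171, 1.60 and 0.874 CPM. The order was that of Cxcl2, with cisplatin replicates 4 and 5 above the other 3, and Cxcl3 was 6.95-fold lower than with vehicle (-2.80 ± 0.67, adjusted P = 0.00356). Both changes were smaller and not called in the later run alone, at -1.26 for Cxcl2 (adjusted P = 0.167) and -1.60 for Cxcl3 (adjusted P = 0.0715). With separate run terms they were -4.39 (adjusted P = 1.11e-05) and -4.89 (adjusted P = 5.21e-06).

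Cxcl1 was at 22.9 ± 11.03 CPM with vehicle and 8.07 ± 2.83 CPM with cotreatment, 2.83-fold lower (-1.50 ± 0.54, adjusted P = 0.0401), and the call was kept in 11 of 20 fits that each left out 1 tumor. In the later run alone the log2 fold change of Cxcl1 was -0.72 (adjusted P = 0.519), and with a code run term it was -1.48 and not called (adjusted P = 0.0520). With separate run terms it was -2.77 (adjusted P = 0.00142). With cisplatin alone Cxcl1 ranged from 8.90 to 73.8 CPM, and replicate 5 was the high one. Cxcl9 measured 6.94, 13.8, 12.1, 1.82 and 4.11 CPM in the vehicle tumors and 17.01, 1.68, 11.8, 11.8 and 10.5 CPM in the KW6002 tumors. With cisplatin alone Cxcl9 was at 2.94, 0.330, 0.605, 4.02 and 14.47 CPM, and with cotreatment at 1.35, 0.744, 0.819, 0.908 and 1.90 CPM. Cotreated tumors formed a narrow low range that vehicle replicate 4 and KW6002 replicate 2 shared, while cisplatin tumors spread over the whole range. Cxcl9, like Cxcl10 induced by interferon gamma, was 6.75-fold lower with cotreatment (-2.76 ± 0.86, adjusted P = 0.0200). It kept its call with a code run term (-2.50, adjusted P = 0.0382). The change was not called with separate run terms (-3.11, adjusted P = 0.0502) or in the later run alone (-2.49, adjusted P = 0.228).

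Cxcl16 measured 38.9, 42.4, 44.4, 35.8 and 30.9 CPM with cisplatin and 34.4, 24.9, 29.5, 33.3 and 23.4 CPM with cotreatment. It fell by 0.36 on the log2 scale from vehicle (SE 0.11, adjusted P = 0.0163), with overlapping groups, and 18.3% of its exon bases are shared with Zmynd15 on the other strand. Cxcl16 kept this call with a code run term (-0.40, adjusted P = 0.0148). With separate run terms (-0.36, adjusted P = 0.1025) and in the later run alone (-0.39, adjusted P = 0.114) the change was about as large but not called. Cxcl13 measured 1.07, 2.92, 0.327, 0.0551 and 0.130 CPM in the vehicle tumors and 10.3, 0.290, 1.99, 1.44 and 0.868 CPM in the KW6002 tumors. With cisplatin alone Cxcl13 was at 0.102, 0.152, 0.181, 4.75 and 4.68 CPM, and with cotreatment at 6.58, 12.6, 4.64, 2.01 and 22.2 CPM. In the cotreated tumors Cxcl13, the B cell attractant that binds Cxcr5, exceeded 4 of 5 vehicle tumors, and vehicle replicate 2 overlapped them. It was 10.9-fold higher than with vehicle (3.44 ± 1.22, adjusted P = 0.0371, 95% interval 0.86 to 6.03), the widest interval among the called members, and the call was kept in 14 of 20 fits that each left out 1 tumor. With a code run term Cxcl13 kept its call (3.52, adjusted P = 0.0434). It lost the call with separate run terms (1.67, adjusted P = 0.469) and in the later run alone (3.88, adjusted P = 0.108).

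Of the 12 ligands lower with cotreatment, 8 had a RefSeq promoter, and 6 of these are shown to compare the CXC ligands of 1 chromosome with Ccl12, a CC ligand. The other two, Cx3cl1 and Xcl1, held neither motif described here. Sequences are the 220 bases before the RefSeq start in GRCm38.p6, read 5′ to 3′ on the strand of the gene, and capitals mark matches to 2 motifs searched on both strands. The kappa B-like motif, a form known to be bound by NF-kappa B, was GGG followed by 2 or 3 bases of any kind and TTCC. The core of the interferon-stimulated response element was GAAA, 2 bases of any kind and GAAA. Overlapping matches share capitals. Cxcl10 lies at chr5:92348890-92349109, minus strand, Cxcl9 at chr5:92328080-92328299, minus strand, Cxcl1 at chr5:90891025-90891244, plus strand, Cxcl2 at chr5:90903679-90903898, plus strand, Cxcl3 at chr5:90785881-90786100, plus strand and Ccl12 at chr11:82101625-82101844, plus strand.
Cxcl10: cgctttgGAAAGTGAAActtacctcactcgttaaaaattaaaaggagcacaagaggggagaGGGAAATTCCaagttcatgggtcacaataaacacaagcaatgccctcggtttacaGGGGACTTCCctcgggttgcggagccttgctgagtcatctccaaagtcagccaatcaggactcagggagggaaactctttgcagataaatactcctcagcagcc
Cxcl9: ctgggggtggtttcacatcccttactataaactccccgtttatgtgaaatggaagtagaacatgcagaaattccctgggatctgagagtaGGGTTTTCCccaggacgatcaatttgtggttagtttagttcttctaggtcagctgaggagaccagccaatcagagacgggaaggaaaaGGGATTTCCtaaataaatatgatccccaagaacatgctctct
Cxcl1: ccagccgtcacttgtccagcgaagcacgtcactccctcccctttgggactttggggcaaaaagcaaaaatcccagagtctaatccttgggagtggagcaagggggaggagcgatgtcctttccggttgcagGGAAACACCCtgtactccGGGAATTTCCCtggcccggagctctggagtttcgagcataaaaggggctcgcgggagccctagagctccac
Cxcl2: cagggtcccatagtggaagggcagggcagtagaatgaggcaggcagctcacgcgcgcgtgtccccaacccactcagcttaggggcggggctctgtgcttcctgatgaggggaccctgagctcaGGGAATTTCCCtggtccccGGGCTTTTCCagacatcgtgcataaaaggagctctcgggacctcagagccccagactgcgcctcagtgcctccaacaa
Cxcl3: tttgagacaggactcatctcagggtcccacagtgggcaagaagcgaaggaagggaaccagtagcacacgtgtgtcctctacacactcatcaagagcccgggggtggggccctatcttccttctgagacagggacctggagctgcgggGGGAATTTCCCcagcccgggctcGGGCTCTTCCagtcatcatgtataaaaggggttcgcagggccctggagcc
Ccl12: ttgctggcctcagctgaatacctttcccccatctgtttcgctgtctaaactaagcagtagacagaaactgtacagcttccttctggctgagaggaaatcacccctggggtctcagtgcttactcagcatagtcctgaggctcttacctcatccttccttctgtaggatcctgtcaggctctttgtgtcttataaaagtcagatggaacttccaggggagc

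Cxcl10 held the interferon motif at bases 213 to 204 before the start and kappa B-like matches at bases 159 to 150 and 104 to 95. Cxcl9 held kappa B-like matches at bases 130 to 122 and 42 to 34. In Cxcl1, Cxcl2 and Cxcl3 such matches lay between 97 and 41 bases before the start, and Ccl12 held neither motif in this window. RefSeq promoters were matched for 34 of 45 members, and those with no entry included Ccl2, Ccl4, Ccl5, Ccl7, Ccl11, Ccl24, Ccr7, Cxcl5, Cxcl16 and Cxcr5. Over the 250 bases before the start, 8.26% of 32851 promoters held the kappa B-like motif, as did 8 of 34 members (23.5%), 5 of the 8 matched ligands lower with cotreatment (62.5%) and 1 of the 13 other matched ligands (7.69%). The interferon core was in 2.98% of all promoters and in 2 members, Cxcl10 and Cxcl14. Cxcl1, Cxcl2 and Cxcl3 are close relatives in 1 gene cluster, as are Cxcl9 and Cxcl10, so these matches are not independent, and a match describes letters only.

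The remaining lower ligands were Cx3cl1 and Xcl1. Cx3cl1 measured 24.2, 22.3, 23.7, 20.5 and 19.0 CPM in the vehicle tumors and 25.9, 22.4, 21.5, 21.3 and 23.0 CPM in the KW6002 tumors. With cisplatin alone Cx3cl1 was at 19.6, 17.9, 17.4, 18.8 and 19.96 CPM, and with cotreatment at 13.4, 13.7, 11.4, 17.6 and 14.8 CPM. Cotreated tumors were below all tumors without cisplatin and overlapped the cisplatin tumors only through replicate 4. Cx3cl1, a membrane-anchored chemokine, was 1.55-fold lower than with vehicle (-0.63 ± 0.10, adjusted P = 4.31e-05). Xcl1 measured 0.829, 0.633, 0.816, 0.330 and 0.652 CPM in the vehicle tumors and 0.528, 0.387, 0.538, 0.961 and 0.434 CPM in the KW6002 tumors. With cisplatin alone Xcl1 was at 0.237, 0.279, 0.514, 0.981 and 0.833 CPM, and with cotreatment at 0.147, 0.165, 0.171, 0.248 and 0.343 CPM. The highest cotreated tumor was just above the lowest vehicle tumor. Xcl1, a product of activated T and NK cells, was 3.01-fold lower (-1.59 ± 0.40, adjusted P = 0.00384), at under 1 CPM, and 18.7% of its exon bases are shared with Gm20743 on the other strand.

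Receptors that fell with cotreatment included Ccr7, Cx3cr1, Cxcr2, Cxcr6 and Xcr1, and none was called higher. With a code run term the atypical receptor Ackr1 was called higher (1.29, adjusted P = 0.0360), but not in the later run alone (1.37, adjusted P = 0.0710) or with separate run terms (0.67, adjusted P = 0.407). Cxcr2 is given above. Cx3cr1 measured 36.2, 30.3, 27.9, 32.0 and 48.0 CPM in the vehicle tumors and 25.3, 55.2, 26.3, 34.3 and 43.0 CPM in the KW6002 tumors. With cisplatin alone Cx3cr1 was at 36.8, 24.1, 26.9, 12.3 and 15.2 CPM, and with cotreatment at 13.0, 8.54, 17.6, 20.3 and 8.92 CPM. All cotreated tumors were below all tumors without cisplatin, and cisplatin replicates 4 and 5 were within the cotreated range. Cx3cr1, a receptor of monocytes and macrophages, was 2.55-fold lower than with vehicle (-1.35 ± 0.32, adjusted P = 0.00290). The summed macrophage markers (10 genes) were at 2320 to 3444 CPM with vehicle and 2702 to 3899 CPM with cotreatment, with 2 higher and 1 lower of 10 called.

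Ccr7 measured 3.52, 3.48, 3.49, 1.46 and 2.31 CPM in the vehicle tumors and 8.27, 2.45, 2.91, 2.59 and 2.89 CPM in the KW6002 tumors. With cisplatin alone Ccr7 was at 1.83, 1.02, 1.60, 3.10 and 2.76 CPM, and with cotreatment at 1.69, 0.964, 1.19, 1.35 and 1.12 CPM. Vehicle replicate 4 lay within the cotreated range, and KW6002 replicate 1 was far above the rest. Ccr7 was 2.24-fold lower with cotreatment than with vehicle (-1.17 ± 0.36, adjusted P = 0.0156). Xcr1 measured 0.864, 0.211, 0.294, 0.440 and 0.424 CPM in the vehicle tumors and 0.808, 0.548, 0.506, 0.544 and 0.723 CPM in the KW6002 tumors. With cisplatin alone Xcr1 was at 0.406, 0.152, 0.272, 0.215 and 0.115 CPM, and with cotreatment at 0.171, 0.0827, 0.102, 0.248 and 0 CPM. Xcr1, the Xcl1 receptor of cross-presenting dendritic cells, was 3.52-fold lower (-1.81 ± 0.48, adjusted P = 0.00558), with vehicle replicate 2 inside the cotreated range. The summed dendritic cell markers (7 genes) were at 25.7 to 37.5 CPM with vehicle and 21.7 to 29.5 CPM with cotreatment, and 3 of 7 (Clec9a, Batf3 and Cd209a) were lower, and their part in the Xcr1 and Ccr7 results was not tested.

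Cxcr6 measured 0.484, 0.246, 1.11, 0.110 and 0.326 CPM in the vehicle tumors and 1.74, 0.322, 0.538, 1.41 and 0.579 CPM in the KW6002 tumors. With cisplatin alone Cxcr6 was at 0.0677, 0.102, 0.0907, 0.675 and 0.115 CPM, and with cotreatment at 0.196, 0.0551, 0.102, 0.165 and 0.0936 CPM. Of the cotreated tumors, 2 of 5 lay within the vehicle range and 3 below it. Cxcr6, a receptor of T and NK cells, was 3.55-fold lower (-1.83 ± 0.71, adjusted P = 0.0497) and kept its call in 5 of 20 fits that each left out 1 tumor, so it lay at the threshold. The summed T cell markers were at 1.13 to 6.92 CPM with vehicle and 0.842 to 2.84 CPM with cotreatment, with 1 of 8 called lower, and the part of T cells in the Cxcr6 level was not tested.

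**Figure D3:**
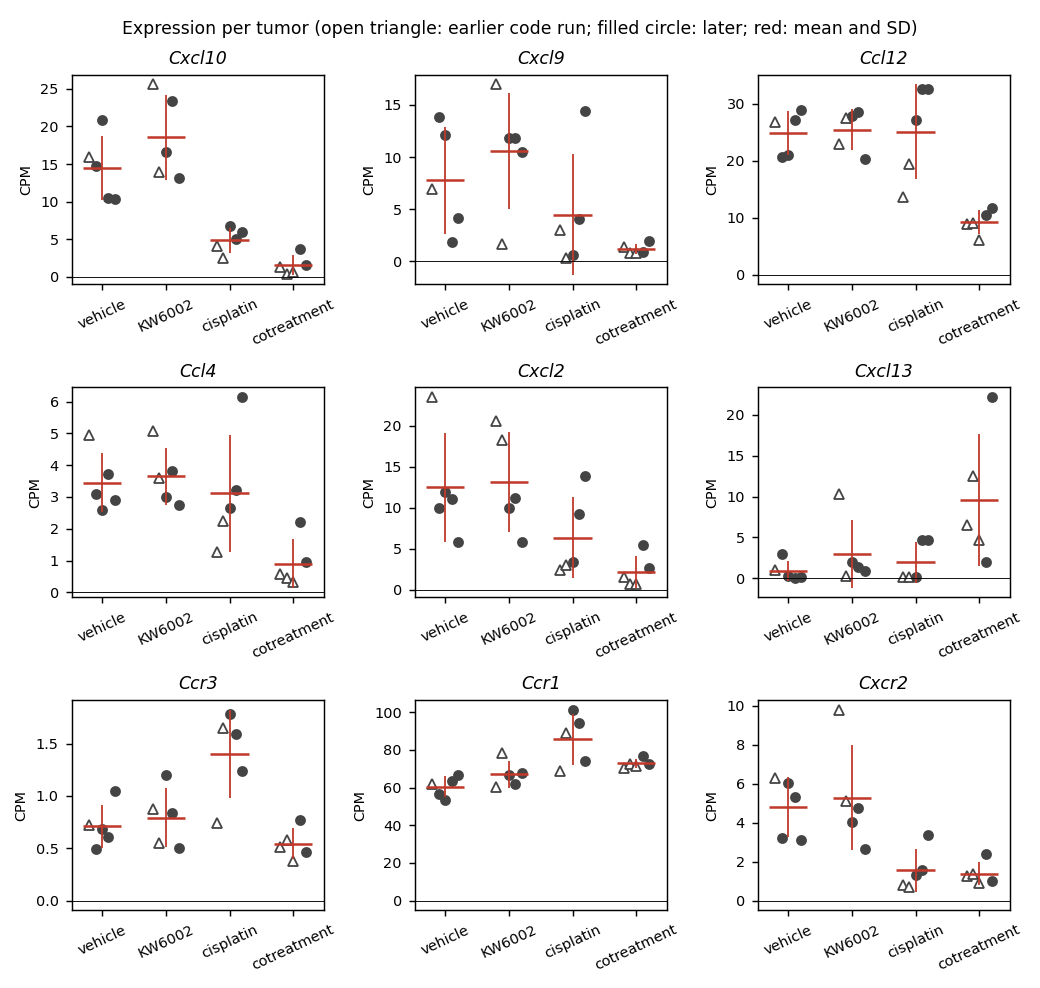
CPM of 9 members in each tumor by group, with triangles for the earlier and circles for the later code run, and the mean with SD in red (n = 5). Ccl12 is at 6.17 to 11.6 CPM in the cotreated tumors and at 13.7 CPM or more elsewhere, Ccr1 is higher in every tumor given cisplatin than in every vehicle tumor, and Ccr3 is high in 4 of 5 cisplatin tumors.

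Cotreatment was also compared with KW6002 alone, a comparison that shares the cotreated tumors with the one against vehicle. Of 43 members, 24 were called, 3 higher and 21 lower, against 23.3% of all genes, 12.6% higher and 10.7% lower. They were 17 ligands and 7 receptors, and the groups did not overlap for 18 members (41.9%), against 24.9% of all genes. Against KW6002, Cxcl10 was 11.9-fold lower (-3.57 ± 0.44, adjusted P = 1.19e-05), Cxcl9 9.21-fold lower (-3.20 ± 0.87, adjusted P = 0.00893) and Cxcr6 7.20-fold lower (-2.85 ± 0.67, adjusted P = 0.00256). Ccl11 (0.85 ± 0.16, adjusted P = 0.000378), Ccl17, a ligand of Ccr4 (1.67 ± 0.59, adjusted P = 0.0343), and Ccl28, a mucosal chemokine (0.57 ± 0.16, adjusted P = 0.00807), were higher. Ccl17 lost its call with separate run terms (1.26, adjusted P = 0.212) and in the later run alone (1.955, adjusted P = 0.244). It kept the call with a code run term (1.73, adjusted P = 0.0325) and in the earlier run alone (1.34, adjusted P = 0.0372). Cxcl10 and Ccl11 were called in each run alone. Cxcl9 was called in neither the earlier (-3.25, adjusted P = 0.149) nor the later run (-3.01, adjusted P = 0.190). Nor was Ccl28 (0.62, adjusted P = 0.0575, and 0.58, adjusted P = 0.164). Cxcr6 was called in the earlier (-3.06, adjusted P = 0.0143) but not the later run (-2.64, adjusted P = 0.147). Beside these, 8 of 8 T cell markers were called lower than with KW6002 (median log2 fold change -2.90), and their sum was at 3.13 to 31.3 CPM with KW6002 and 0.842 to 2.84 CPM with cotreatment. The 31.3 CPM belonged to KW6002 replicate 1, also the highest of its group for Cxcl9 (17.01 CPM) and Cxcr6 (1.74 CPM). Of 7 dendritic cell markers 5 were called lower, with sums of 29.3 to 42.1 and 21.7 to 29.5 CPM. The part of these cells in the levels of Cxcr6, Cxcl9, Ccl5 and the other members was not tested.

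In the fit without run terms, members called lower against KW6002 but not against vehicle were Ccl3, Ccl5, Ccl22 and Ccr9. With separate run terms Ccl3 (-2.28, adjusted P = 8.61e-05) and Ccr9 (-2.19, adjusted P = 0.0118) were called lower than with vehicle as well. So were Ccl22 (-1.69, adjusted P = 0.0224) and Ccl5 (-1.77, adjusted P = 0.0413). None of them was called against vehicle with a code run term or in the later run alone. Ccl5, a product of T cells and macrophages, was at 1.61 ± 0.704 CPM with vehicle, 2.48 ± 1.61 with KW6002, 1.33 ± 0.803 with cisplatin and 0.694 ± 0.165 with cotreatment, 3.54-fold lower than with KW6002 (-1.82 ± 0.47, adjusted P = 0.00538). Ccl3, a close relative of Ccl4, was 2.30-fold lower (-1.20 ± 0.43, adjusted P = 0.0390), Ccl22, a ligand of Ccr4, 2.40-fold lower (-1.26 ± 0.44, adjusted P = 0.0305) and Ccr9, the Ccl25 receptor, 3.27-fold lower (-1.71 ± 0.51, adjusted P = 0.0118). Against KW6002, Ccl3 was called in the earlier run alone (-2.36, adjusted P = 0.00169). In the later run alone Ccl3 was at -0.22 and not called (adjusted P = 0.695), so its pooled value rests mainly on the earlier run. Ccr9 was likewise called in the earlier run (-2.25, adjusted P = 0.0364) but not in the later run (-1.16, adjusted P = 0.156). Ccl5 (-2.03 and -1.645) and Ccl22 (-1.67 and -0.94) were called in neither run alone. Without KW6002 replicate 1 Ccl3, Ccl22 and Ccr9 lost their calls and 21 members were called, in a fit whose share of all genes called is not given here. Exons of Ccr9 share 18.8% of their bases with another gene.

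The question of what KW6002 added to cisplatin was addressed by cotreatment against cisplatin. Of 43 members, 9 were called, 1 higher and 8 lower, against 4% of all genes, 2.29% higher and 1.71% lower. Of the 9, 8 were ligands. Lower were Ccl12, Ccl4, Ccl7, Cx3cl1, Cxcl10, Cxcl16, Xcl1 and the receptor Ccr3, and Ccl28 was higher. The median log2 fold change was -0.61 over ligands, -0.23 over receptors and -0.006 over all genes. The groups did not overlap for 1 member, Ccl12, and for 4.83% of all genes.

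Ccl12 was 2.71-fold lower with cotreatment than with cisplatin (-1.44 ± 0.21, adjusted P = 0.00112). Within the earlier run the log2 fold change was -1.04 (adjusted P = 0.0365, 3 against 2 tumors) and within the later run -1.48 (adjusted P = 0.03, 2 against 3 tumors), and the call was kept in 13 of 13 other settings and in 20 of 20 fits that each left out 1 tumor. Ccr3 was 2.57-fold lower (-1.36 ± 0.27, adjusted P = 0.00642), with cisplatin replicate 1 and cotreatment replicate 4 overlapping, at -1.30 in each run taken alone without passing there (adjusted P = 0.119 and 0.258). Ccl4 was 3.41-fold lower (-1.77 ± 0.43, adjusted P = 0.0213), at -1.95 in the earlier run (adjusted P = 0.0201) and -1.33 in the later run (adjusted P = 0.245).

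Of the other called members, Cxcl10 was 3.11-fold lower than with cisplatin (-1.64 ± 0.43, adjusted P = 0.0316), Ccl7 1.75-fold lower (-0.80 ± 0.21, adjusted P = 0.0321) and Xcl1 2.64-fold lower (-1.40 ± 0.40, adjusted P = 0.0398). Cx3cl1 (-0.40 ± 0.10, adjusted P = 0.0170) and Cxcl16 (-0.40 ± 0.11, adjusted P = 0.0380) fell by less. Ccl28 measured 2.45, 1.79, 2.94, 2.06 and 2.41 CPM in the vehicle tumors and 1.71, 2.06, 2.06, 2.31 and 1.95 CPM in the KW6002 tumors. With cisplatin alone Ccl28 was at 2.27, 2.44, 1.75, 1.96 and 1.95 CPM, and with cotreatment at 3.28, 2.81, 2.63, 2.28 and 3.99 CPM. Ccl28 was 1.44-fold higher with cotreatment than with cisplatin (0.53 ± 0.16, adjusted P = 0.0480), with cotreatment replicate 4 below cisplatin replicate 2, and kept its call in 6 of 20 fits that each left out 1 tumor. With a code run term Xcl1 (-1.24, adjusted P = 0.0540) and Ccl28 (0.53, adjusted P = 0.0598) lost their calls. Within single runs, of these 6 members Cx3cl1 alone passed, in the earlier run (-0.55, adjusted P = 0.0441). Without single tumors the count of called members ranged from 2 to 12: it was 2 without cotreatment replicate 2 or 3, 4 without cisplatin replicate 3 or 5, and 5 without cisplatin replicate 4 or cotreatment replicate 1. The shares of all genes called in these fits are not given here. The later run held 2 cotreated and 3 cisplatin tumors, the earlier 3 and 2. The cotreated group held more earlier tumors than any other group, and members by run are given below.

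Whether the effect of KW6002 differed with and without cisplatin was tested by the interaction, the change from cisplatin to cotreatment minus the change from vehicle to KW6002. No member was called. Over all genes 0.066% were called (11 genes), 0.036% higher and 0.03% lower. Before adjustment 14 members were among 2034 genes with P under 0.05, and DESeq2 called 5 members. Ccl12 was nearest to the threshold (-1.47 ± 0.29, adjusted P = 0.0536), and Cxcl16 (-0.64 ± 0.16, adjusted P = 0.106) and Ccr3 (-1.52 ± 0.39, adjusted P = 0.120) followed. Of 43 members, 35 had a negative interaction, with a median of -0.57 against -0.005 over all genes. Without cotreatment replicate 4, 6 members were called. The shares of all genes called in that fit and by DESeq2 are not given here, so these counts have no background beside them.

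Ligands and their receptors were then set side by side, as log2 fold changes against vehicle for cisplatin and for cotreatment, which share the vehicle tumors. Ccl2 changed by -0.45 ± 0.17 and -1.03 ± 0.17, and its receptor Ccr2 by 0.20 ± 0.18 and 0.07 ± 0.18 (95% interval with cotreatment -0.32 to 0.45). Ccr2 was thus called in neither comparison while its ligands Ccl2, Ccl7 and Ccl12 were lower with cotreatment. Ccl5 changed by -0.27 ± 0.46 and -1.19 ± 0.48, neither called.

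Cxcl9 and Cxcl10 changed by -0.79 ± 0.79 and -1.57 ± 0.40 with cisplatin and by -2.76 ± 0.86 and -3.21 ± 0.44 with cotreatment. Their receptor Cxcr3 changed by 0.05 ± 0.47 and -0.08 ± 0.48, uncalled, at 0.684 ± 0.253 CPM with vehicle and 0.638 ± 0.207 CPM with cotreatment. Cxcl12, the stromal ligand of Cxcr4 and Ackr3, changed by 0.03 ± 0.35 and -0.16 ± 0.35. Cxcr4, found on most leukocytes and many tumor cells, changed by -0.06 ± 0.15 and -0.17 ± 0.15, and Ackr3 by 0.21 ± 0.35 and -0.36 ± 0.35. None of these 3 was called against vehicle.

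Cxcl16 changed by 0.04 ± 0.11 and -0.36 ± 0.11, and Cxcr6 by -1.10 ± 0.66 and -1.83 ± 0.71. Cx3cl1 changed by -0.23 ± 0.10 and -0.63 ± 0.10, and Cx3cr1 by -0.60 ± 0.31 and -1.35 ± 0.32. In both of these pairs ligand and receptor were called lower with cotreatment and neither with cisplatin alone. For the neutrophil axis Cxcl1 changed by 0.14 ± 0.52 and -1.50 ± 0.54, Cxcl2 by -0.97 ± 0.58 and -2.50 ± 0.63, Cxcl3 by -1.37 ± 0.62 and -2.80 ± 0.67, and Cxcl5 by 0.11 ± 0.35 and -0.56 ± 0.36. Cxcr2 was the only one of these 5 genes called lower with cisplatin alone (-1.62 ± 0.41), and the differences between these genes were not tested.

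The members were compared between code runs because the runs are spread unevenly over the groups. With 1 run term over all 20 tumors no member was called, against 0.006% of all genes (0.006% higher and 0% lower), with 5 members at an unadjusted P value under 0.05 among 2226 genes, and DESeq2 called 0 members. The tumors given cisplatin, 5 in each run, differed between runs: 15 members were higher in the later run and 0 lower. Over all genes 7.29% were called there, 4.65% higher and 2.64% lower. The 15 were 14 ligands and Ackr3, with a median log2 difference of 0.84 over ligands, 0.40 over receptors and 0.001 over all genes. What distinguishes the runs, such as mice, dates or preparation, cannot be told apart here.

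Cxcl3 in cisplatin-treated tumors was at 0.110 to 0.643 CPM in the earlier and 0.786 to 3.59 CPM in the later run (5.61-fold higher, 2.49 ± 0.41, adjusted P = 0.00434), with no overlap. Cxcl2 was at 0.689 to 3.07 and 2.59 to 13.8 CPM (3.56-fold, 1.83 ± 0.36, adjusted P = 0.00862), while Cxcl1 was at 5.81 to 9.65 and 9.77 to 73.8 CPM (2.66-fold, 1.41 ± 0.43, adjusted P = 0.0412). Cxcl5, likewise a ligand of Cxcr2, was at 6.22 to 12.3 and 13.3 to 32.9 CPM (2.03-fold, 1.02 ± 0.28, adjusted P = 0.0280). These 4 Cxcr2 ligands were all higher in the later run, and of them Cxcl2 overlapped between runs. The share of all genes that did not overlap between these runs is not given here, so overlap has no background beside it.

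Ccl6 and Ccl9, ligands of Ccr1 made by myeloid cells, did not overlap between runs, again without a share of all genes beside it. Ccl6 was at 152 to 277 and 284 to 463 CPM (0.87 ± 0.21, adjusted P = 0.0163) and Ccl9 at 108 to 130.4 and 144 to 191 CPM (0.44 ± 0.09, adjusted P = 0.00945). Ccl24, an eotaxin that binds Ccr3, was at 0.305 to 0.541 and 0.786 to 3.45 CPM (1.80 ± 0.50, adjusted P = 0.0246). Ccl3 (1.36 ± 0.25, adjusted P = 0.00632), Ccl4 (1.43 ± 0.27, adjusted P = 0.00637), Ccl7 (0.63 ± 0.16, adjusted P = 0.0200) and Ccl12 (0.68 ± 0.15, adjusted P = 0.0109) overlapped between runs. These 7 were all of the CC ligands called.

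Cxcl10 (1.21 ± 0.34, adjusted P = 0.0285), Cxcl12 (0.93 ± 0.29, adjusted P = 0.0421) and Xcl1 (1.26 ± 0.34, adjusted P = 0.0216) completed the ligands. Ackr3 measured 33.0, 26.5, 32.5, 26.3 and 23.9 CPM in the vehicle tumors and 36.5, 20.6, 28.5, 31.1 and 22.1 CPM in the KW6002 tumors. With cisplatin alone Ackr3 was at 16.6, 16.2, 18.3, 46.9 and 66.4 CPM, and with cotreatment at 18.4, 16.9, 17.7, 27.3 and 30.8 CPM. Cisplatin replicates 4 and 5, both of the later run, were the highest of all 20. Ackr3, which takes up Cxcl12, was 2.10-fold higher in the later run (1.07 ± 0.28, adjusted P = 0.0217). Beside these, the summed neutrophil markers in cisplatin-treated tumors were at 19.0 to 26.6 CPM in the earlier and 31.8 to 85.3 CPM in the later run, with 5 of 6 called higher. Macrophage markers were at 2702 to 3570 and 3502 to 4396 CPM, with 5 of 10 called higher. NK cell markers were at 3.86 to 5.01 and 3.91 to 16.6 CPM, with 2 of 6 (Gzma and Prf1) called higher, and of 7 fibroblast markers 2 (Col1a1 and Col1a2) were called higher. Of dendritic cell markers 1 of 7 and of lymphatic endothelial markers 1 of 2 tested were higher. The part of these cell types in the ligand levels was not tested. Without cisplatin replicate 1 the count of called members was 6 and without cisplatin replicate 2 it was 7. The shares of all genes called in these fits are not given here.

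In tumors without cisplatin, 3 in the earlier and 7 in the later run, no member was called between runs (0% of all genes, 0% higher and 0% lower). There, 7 members among 772 genes had an unadjusted P value under 0.05, DESeq2 called 0 members, and the median log2 difference was -0.14 over ligands. Neutrophil markers in these tumors were at 107 to 159 CPM in the earlier and 52.8 to 82.3 CPM in the later run. Cxcl2 was at 18.2 to 23.5 CPM in the earlier and 5.86 to 11.9 CPM in the later run, opposite to the cisplatin-treated tumors.

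The difference of these run contrasts, with minus without cisplatin, called 4 members higher and 0 lower, against 1.81% of all genes (0.798% higher and 1.01% lower). They were Cxcl3 (3.26 ± 0.54, adjusted P = 0.0252), Cxcl2 (3.004 ± 0.50, adjusted P = 0.0252), Ccl3 (2.11 ± 0.36, adjusted P = 0.0252) and Ccl4 (1.97 ± 0.37, adjusted P = 0.0271). All 4 are chemokines that neutrophils and macrophages are known to make. In this contrast 4 of 6 neutrophil markers were called higher, while 0 of 10 macrophage markers were called. Of the dendritic, T and NK cell markers 0 were called as well. The relation of these markers to the 4 ligands was not tested. Without vehicle replicate 1, KW6002 replicate 1 or cisplatin replicate 1, 0 members were called, and the shares of all genes called in these fits are not given here.

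**Figure D4:**
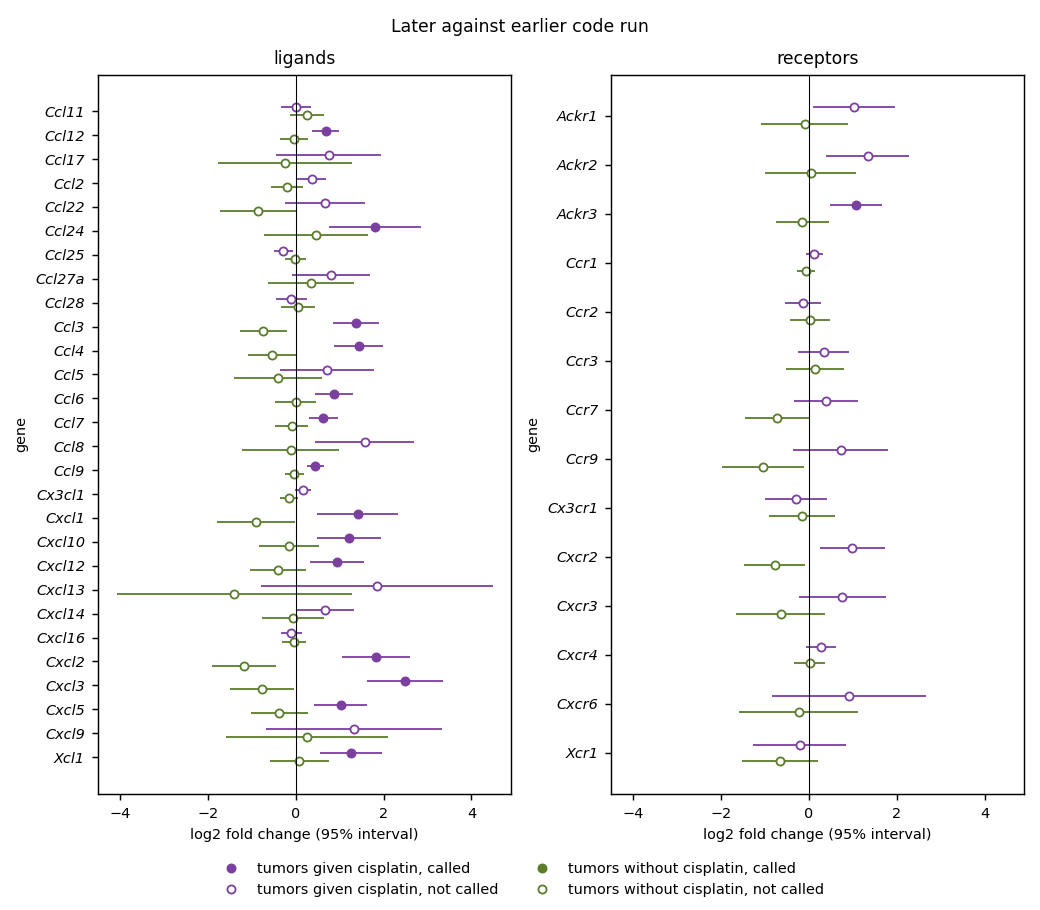
Log2 difference of the later from the earlier code run for tested ligands (left) and receptors (right), with 95% intervals, in tumors given cisplatin and in tumors without it; filled points passed both thresholds. In tumors given cisplatin 14 ligands and Ackr3 are filled and lie above 0, led by Cxcl3 at 2.49, and no point of the tumors without cisplatin is filled.

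Tested members with no call in the treatment comparisons without run terms or in the run contrasts were Ackr1, Ackr2, Ccl8, Ccl25, Ccl27a, Ccr2, Cxcl14, Cxcr3 and Cxcr4. Ccl8, a monocyte attractant, spread widely, at 92.5 ± 33.1 CPM with vehicle, 96.0 ± 81.4 with cisplatin and 62.0 ± 23.7 with cotreatment. Ccl25, a thymus and gut chemokine, was at 16.5 ± 1.60 and 17.8 ± 2.08 CPM with vehicle and cotreatment. Ccr2 was at 68.6 ± 14.8, 80.5 ± 4.45, 78.7 ± 15.6 and 71.7 ± 20.6 CPM in the 4 groups, and Cxcr4 at 20.2 ± 3.25, 20.7 ± 2.58, 19.4 ± 5.80 and 17.9 ± 2.46 CPM. Cxcl14, which many epithelia make, was at 3.94 ± 1.36 CPM with vehicle and 2.77 ± 1.61 CPM with cotreatment. Ackr2, a scavenger of inflammatory CC chemokines, was at 0.599 ± 0.207 and 0.561 ± 0.370 CPM, and its 95% interval for cotreatment was -1.12 to 0.95. Of the exon bases of Ackr1, 25.7% are shared with Cadm3 on the same strand, and Ccl27a has near-identical copies.

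Lists of other genes of the pathway were counted beside the members. The first list held 6 chemokines and related genes with other symbols (Pf4, Ppbp, Ccrl2, Cklf, Cmklr1 and Rarres2), not all of them members of the family. Of these 6, 3 (50%, against 23.5% of all genes called) were lower with cotreatment than with vehicle: Ppbp, a platelet Cxcr2 ligand (-1.70 ± 0.44, adjusted P = 0.00566), Ccrl2, a chemerin-binding receptor (-1.33 ± 0.46, adjusted P = 0.0304), and Cklf (-0.37 ± 0.09, adjusted P = 0.00326). Between runs in cisplatin-treated tumors 4 of the 6 were higher in the later run (4.65% of all genes were), Rarres2, which encodes chemerin (2.44 ± 0.64, adjusted P = 0.0241), Ccrl2, Ppbp and Pf4. None of the 6 was called with cisplatin alone.

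Of 21 genes of G protein and lipid kinase signalling, 5 were lower with cotreatment and 0 higher, against 1 higher and 1 lower with cisplatin. Against vehicle the shares called, 23.8% with cotreatment and 9.52% with cisplatin, were near those of all genes (23.5% and 10.6%). Against cisplatin 4 of the 21 were lower with cotreatment and 0 higher (19%, against 4% of all genes called). Against KW6002 8 were lower and 0 higher (38.1%, against 23.3%). Dock2, an activator of Rac in leukocytes, was among the genes lower with cotreatment than with vehicle (-0.52 ± 0.09, adjusted P = 0.000215). Of 14 desensitisation genes 4 were lower and 1 higher with cotreatment (35.7%), with Rgs1, which shortens Gi signals, at -1.29 ± 0.22 (adjusted P = 0.000132). Of 18 regulators of chemokine transcription, 10 were lower with cotreatment and 0 higher, against 0 higher and 3 lower with cisplatin alone, so that 55.6% and 16.7% were called. Irf1 (-0.62 ± 0.07, adjusted P = 1.32e-06), Nfkb2 (-0.55 ± 0.07, adjusted P = 8.78e-06) and Rel (-0.63 ± 0.10, adjusted P = 4.81e-05) were among the 10. Against cisplatin, 3 of these 18 were lower with cotreatment, as were 1.71% of all genes: Irf1, Nfkb2 and Jun. Of 7 genes that shed or cleave ligands, 2 (28.6%, near the 23.5% of all genes called) were lower with cotreatment, Adam17, the sheddase of Cx3cl1 (-0.53 ± 0.07, adjusted P = 8.78e-06), and Mmp12 (-0.75 ± 0.24, adjusted P = 0.0201). With cisplatin alone 2 of the 7 were lower as well (28.6%, against 10.6% of all genes called). Mean Adam17 was at 298 CPM with vehicle, 218 with cisplatin and 207 with cotreatment, and Mmp12 at 250, 127 and 148.5 CPM.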

How the data were processed

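RNA-seq libraries (stranded poly(A) TruSeq, 350 ng total RNA per the labels, where the study's methods give a larger amount, 12 PCR cycles) were made from 20 LLC1 tumors. The authors deposited raw counts per gene. Per the labels, the study's methods and the submitters' processing notes, base calls were converted with bcl2fastq 2.17.1.14, single-end reads were aligned to mm10 with STAR, and uniquely aligned reads were counted with HTSeq 0.6.1p1 in union mode, whose strand option is not given in the sources used here.

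Counts were tested with edgeR 4.0.16 in R 4.3.3 (filterByExpr, TMM scaling, robust quasi-likelihood fit of 4 group means over 20 tumors, two-sided, prior count 2), and P values were adjusted by Benjamini-Hochberg over 16665 genes. A gene was called at an adjusted P value under 0.05 and an absolute log2 fold change of at least 0.32, the study's thresholds. The CPM printed are counts per 1 M counts of the TMM-scaled library, except those of the tissue marker genes in the opening, which use unscaled totals. RPKM used union exon lengths of GENCODE M21 (GRCm38), whose identifiers gave symbols to 35142 of 35226 genes. Values after ± are SD for levels and SE for log2 fold changes, and intervals are 95%. Run contrasts used 1 run term for cisplatin-treated tumors and 1 for the others.

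The members, gene lists and marker lists were chosen with earlier results of these data known. Named were all members called in a treatment or run comparison and a fixed set of others. The run contrast without cisplatin, the difference of run contrasts, the motifs and the tissue marker genes were added after seeing the data. Alternatives were DESeq2 1.42.0, RLE or upper quartile scaling, no filter or a mean of at least 50 counts, no fold limit or a test against it, code run terms, single runs, only the tumors compared, the replicate block, and leaving out each tumor. The scripts were tested on simulated data. No columns or samples were left out, and counts of genes include some whose own values are not reported here. Depth was 28.37 to 40.97 M counts, which limits members under about 1 CPM (such as Xcl1, Xcr1, Cxcr6 and Ccr3).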

Additional observations from a re-analysis of the deposited data

Results flagged for a closer look

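In each group of 5 tumors, the gap of the outermost tumor to the nearest was divided by the group's range. Both were taken on log2 CPM with a prior count of 2, not on the CPM printed here. That tumor stood apart from the other 4 where the ratio exceeded the critical value of 0.71. Chance gives about 1 such case in 20 groups. Over all 45 members there were 10 cases in 180 groups, close to that rate, and 6 of them, in members described by tumor, are given here.

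Ccl21a gave 3 of the 6, each with a ratio of 1 because the other 4 tumors were at 0. KW6002 replicate 1 held 160 counts, vehicle replicate 4 held 2 counts and cisplatin replicate 1 held 1 count, and the last pair is at the limit of detection. The 160 counts alone took Ccl21a over the member minimum, so that case was partly set by the selection. Ccr7 in KW6002 replicate 1 had a ratio of 0.859, at 8.27 CPM against 2.45 to 2.91 CPM in the others. Cxcl9 in KW6002 replicate 2 had a ratio of 0.789, at 1.68 CPM against 10.49 to 17.01 CPM. Cxcr6 in cisplatin replicate 4 had a ratio of 0.821, at 0.675 CPM against 0.0677 to 0.115 CPM.

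The change from the earlier to the later code run differed between tumors with and without cisplatin for 4 ligands. The log2 difference of the changes was 2.11 for Ccl3, 1.97 for Ccl4, 3.004 for Cxcl2 and 3.26 for Cxcl3 (edgeR, with minus without cisplatin). Only 3 tumors without cisplatin were in the earlier run.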

How the results depend on the processing

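Of 2398 log2 fold changes of called members under the alternatives, 2088 kept direction and call, 310 kept direction and lost the call, and 0 reversed. Of 303 counts of called members, 262 were within 1.5 times the reported count. The shares of all genes called under these alternatives are not given here. The cause of the other changes was not tested, except that single runs and comparisons of fewer tumors hold fewer samples. For cisplatin against vehicle (5 called), DESeq2 gave 9, the test against the fold limit 0, separate code run terms 9 (set at the earlier run) and the later run alone 8. For cotreatment against vehicle (20), the test against the fold limit gave 13 and the later run alone 7. For cotreatment against cisplatin (9), no filter gave 4, the test against the fold limit 1, the later run alone 1, the earlier run alone 3 and only the tumors compared 2. For cotreatment against KW6002 (24), the later run alone gave 8. For the interaction (0), DESeq2 gave 5, and a mean of at least 50 counts, the code run term and separate code run terms gave 1 each. For the run contrast with cisplatin (15), no filter gave 9, the test against the fold limit 0 and only the tumors compared 9. For the difference of run contrasts (4), DESeq2 gave 14 and the test against the fold limit 0.

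Leaving out each tumor in turn gave 5 to 7 for cisplatin against vehicle, 14 to 22 for cotreatment against vehicle, 2 to 12 for cotreatment against cisplatin, 21 to 25 for cotreatment against KW6002, 0 to 6 for the interaction, 6 to 19 for the run contrast with cisplatin and 0 to 9 for the difference of run contrasts. It gave 0 for KW6002 against vehicle and for the other run contrasts.

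Against vehicle, Cx3cl1, Cxcl10, Ccl12 and Ccl2 kept their cotreatment calls in 12 of 12 settings and 20 of 20 leave-outs. Cxcr6 lost its call under RLE and upper quartile scaling, and Ccl28 against cisplatin under upper quartile scaling. Replicate numbers did not pair the tumors: deviations of same-numbered tumors had a mean correlation of -0.007 (range -0.392 to 0.391), and 3 of 20 tumors were closest to one of their own number. With the replicate block the counts were 0 for KW6002, 5 for cisplatin and 18 for cotreatment against vehicle, 6 for cotreatment against cisplatin, 23 against KW6002 and 0 for the interaction. The earlier run alone could be fitted for cotreatment against cisplatin or KW6002 only.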

Other observations

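Marker lists of cell types not named above were counted beside the chemokines. Endothelial markers (such as Pecam1 and Cdh5) were lower in 7 of 7 with cisplatin and in 6 of 7 with cotreatment against vehicle. Red blood cell markers were lower in 5 of 5 in both comparisons, and mast cell markers in 4 of 4 with cisplatin and 2 of 4 with cotreatment. Between cotreatment and cisplatin none of the tested endothelial, red blood cell or mast cell markers was called. Fibroblast markers were lower in 3 of 7 with cisplatin and 2 of 7 with cotreatment. Lymphatic endothelial markers gave 1 higher and 1 lower of 2 tested in each. Markers of skeletal muscle (6 tested), fat (4 tested) and skin epidermis (1 tested) gave 0 calls in these comparisons.

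The summed NK cell markers, of cells that make Xcl1 and Ccl5, were at 2.45 to 6.77 CPM with vehicle, 2.81 to 7.87 with KW6002, 4.77 to 16.6 with cisplatin and 3.86 to 9.77 with cotreatment. Of 6 markers 1 was higher with cisplatin than with vehicle, 0 were called with cotreatment against vehicle, and 1 was lower with cotreatment than with cisplatin.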
